A study of Homo sapiens with 6 samples.

Results

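The inhibitor of differentiation (ID) genes ID1, ID2, ID3 and ID4, together with the bone morphogenetic protein (BMP) pathway genes SMAD6, SMAD7, BAMBI, NOG, BMP2 and BMP4, were followed across 3 lung cancer cell lines. These 10 genes, each measured by 1 probe set, were selected by name from 17687 named genes on the array. They were selected with their levels and their differences between treated and control cells already known, so those values are given as a description and carry no test. All 3 lines come from non-small cell lung cancer. The epidermal growth factor receptor (EGFR) is mutated in PC-9 and HCC827 and wild-type in H322. PC-9 and HCC827 were measured after 6 hours with 0.01 µM erlotinib, an inhibitor of the EGFR kinase, and as controls. H322 was measured after 6 hours with EGF, the ligand of the receptor, at a labelled 100 µg/ml, and as a control. Per the labels all 3 lines were kept in medium with TNFa. Whether the control cultures received it too is not stated. If they did not, TNFa and the tested agent cannot be told apart.

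BMP ligands such as BMP2 and BMP4 bind paired serine/threonine kinase receptors, which phosphorylate SMAD1, SMAD5 and SMAD9, and these enter the nucleus with SMAD4. ID1, ID2 and ID3 are textbook direct targets of this signal. ID proteins have a helix-loop-helix domain but no DNA-binding region, and they hold E proteins away from DNA and so delay differentiation. The pathway also induces its own brakes: SMAD6 and SMAD7 are inhibitory SMADs, BAMBI is a pseudoreceptor without a kinase domain, and NOG encodes noggin, a secreted protein that binds BMPs.

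Each line and condition had 1 array, so no value from a single line has a replicate check, and the number of arrays limits the precision. Signals are given as log2(intensity + 1) of the deposited values, whose medians lay between 148 and 157 on the 6 arrays. The array's 612 negative control probe sets set the background: a signal at or under their 95th percentile (6.92 to 7.47 on the log2 scale) is called dim. By this measure 48.8% to 52.4% of the named genes were above background on each array. Where 1 array of a pair was dim its signal was set to that percentile and the fold is given as "at least". Such a bound depends on the percentile chosen, and a higher one would make it smaller. Where both arrays were dim no fold is given. Signals of different genes come from different probes and are not compared. All 6 epithelial markers examined (EPCAM, CDH1, KRT8, KRT18, KRT19 and KRT7) were above background on every array. Of the other markers none of 4 leukocyte genes, 1 of 5 fibroblast genes (COL1A2) and 2 of 4 endothelial genes (CDH5 and VWF) were above background on any array. DUSP6, a phosphatase induced by ERK signalling, served as a check that the agents acted: the signal was at least 9.57-fold lower with erlotinib in PC-9, 9.91-fold lower in HCC827, and 1.70-fold higher with EGF in H322.

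The DNA around the start sites is shown for ID1, ID2 and ID3, which were higher together with erlotinib in HCC827, and for SMAD6 and BAMBI, which hold a palindromic SMAD box and several GC-rich SMAD motifs. The sequences are RefSeq windows on GRCh38.p14, 300 bases long, from 250 bases before to 50 after the annotated transcription start, read 5′ to 3′ on the strand of the gene. Windows were available for 8 of the 10 genes (12 windows, since SMAD7 and BMP4 have several starts), and NOG and BMP2 had none here. Capitals mark matches to GTCTAGAC, the palindromic SMAD box, to GGCGCC, a GC-rich motif of BMP-regulated SMADs, to CAGAC, a short SMAD motif, all searched on both strands, and to TATAAA, the TATA box, searched on the strand of the gene.
ID1, chr20:31605039-31605338, plus strand: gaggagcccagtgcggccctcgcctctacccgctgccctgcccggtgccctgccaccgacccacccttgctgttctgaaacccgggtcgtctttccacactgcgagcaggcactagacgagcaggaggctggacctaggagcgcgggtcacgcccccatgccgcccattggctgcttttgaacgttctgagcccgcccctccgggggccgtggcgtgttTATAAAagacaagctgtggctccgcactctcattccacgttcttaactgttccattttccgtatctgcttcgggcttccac
ID2, chr2:8681806-8682105, plus strand: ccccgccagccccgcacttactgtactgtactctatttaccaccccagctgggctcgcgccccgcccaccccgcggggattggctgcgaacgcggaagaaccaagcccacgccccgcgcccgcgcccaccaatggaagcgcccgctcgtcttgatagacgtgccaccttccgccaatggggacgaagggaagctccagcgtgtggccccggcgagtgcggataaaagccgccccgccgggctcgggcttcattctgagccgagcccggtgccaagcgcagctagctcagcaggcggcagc
ID3, chr1:23559452-23559751, minus strand: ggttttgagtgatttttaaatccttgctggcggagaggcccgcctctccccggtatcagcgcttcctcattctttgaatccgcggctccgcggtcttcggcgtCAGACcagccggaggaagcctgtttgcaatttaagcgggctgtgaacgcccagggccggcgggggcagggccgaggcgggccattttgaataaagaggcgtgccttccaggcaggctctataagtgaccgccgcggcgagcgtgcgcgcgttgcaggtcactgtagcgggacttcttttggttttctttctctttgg
SMAD6, chr15:66701986-66702285, plus strand: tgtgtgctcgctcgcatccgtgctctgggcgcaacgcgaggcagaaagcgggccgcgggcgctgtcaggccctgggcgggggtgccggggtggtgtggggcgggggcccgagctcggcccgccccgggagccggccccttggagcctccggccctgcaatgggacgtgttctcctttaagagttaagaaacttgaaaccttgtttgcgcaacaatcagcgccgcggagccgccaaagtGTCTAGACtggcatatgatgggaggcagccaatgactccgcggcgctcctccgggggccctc
BAMBI, chr10:28677271-28677570, plus strand: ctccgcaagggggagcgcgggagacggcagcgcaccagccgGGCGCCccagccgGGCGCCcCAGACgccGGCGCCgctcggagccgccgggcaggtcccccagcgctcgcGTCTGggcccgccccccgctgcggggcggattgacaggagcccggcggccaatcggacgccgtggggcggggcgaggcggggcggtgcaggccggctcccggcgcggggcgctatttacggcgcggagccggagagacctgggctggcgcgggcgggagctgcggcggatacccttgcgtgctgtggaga

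The palindrome GTCTAGAC is rare: 0.202% of 35116 windows of this kind hold it, and among the 8 genes with a window it was found once, in SMAD6, starting 12 bases before the transcription start. GGCGCC occurred in 19.2% of all windows. BAMBI held 3 copies, between 209 and 181 bases before its start, and 1 of the 3 BMP4 windows held 2. The short motif CAGAC was in 45.3% of all windows. It was in every window of ID3, ID4, BAMBI and BMP4 and in some but not all windows of SMAD7. ID1 and ID2 had no match to any of the 3 SMAD motifs in these windows, which says only that these letters are not in this stretch. A TATA box was found in ID1, ID4 and 1 window of SMAD7, against 7.33% of all windows. The 3 ID genes that were higher together in HCC827 shared none of these motifs. The window of BAMBI was 80% G and C and that of ID4 76.3%, against a median of 58.7% over all windows.

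**Figure D1:**
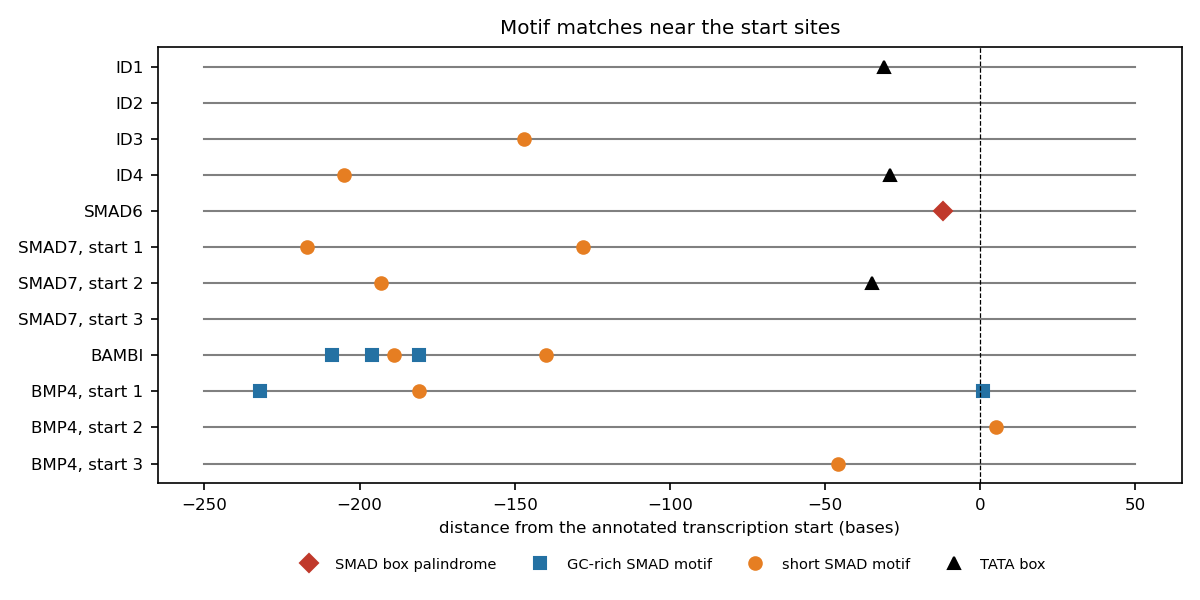
Matches to 4 motifs in the 12 windows available for 8 of the genes, by distance in bases from the annotated transcription start (dashed line at 0). Each row is 1 window and each symbol the first base of a match; the single SMAD box palindrome lies in SMAD6, and the 3 GC-rich motifs of BAMBI lie close together.

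ID1 was above background in HCC827 and H322 but not in PC-9. With erlotinib and in control cells its log2 signal was 4.69 and 6.64 in PC-9, both dim. In HCC827 it was 12.88 with erlotinib and 11.75 in control cells. In H322 it was 12.22 with EGF and 12.08 in control cells. The control signal of PC-9 was thus at least 21.2-fold lower than that of HCC827 and at least 26.8-fold lower than that of H322, while HCC827 and H322 controls were 1.26-fold apart. With erlotinib the HCC827 signal was 2.19-fold higher than in its control. The PC-9 difference of -1.96 lies between dim signals and has no fold, and the H322 difference was 0.13.

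ID2 had the same division between lines. Its signals in PC-9 were dim, at 4.45 with erlotinib and 3.80 in control cells. They were 11.43 with erlotinib and 9.55 in control cells of HCC827, a 3.68-fold higher signal with erlotinib. In H322 they were 9.91 with EGF and 10.70 in control cells, 1.73-fold lower with EGF. ID1 and ID2 were thus dim in the same line, and each had its highest signal on the HCC827 erlotinib array.

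ID3 was above background on all 6 arrays and was the only ID gene measured in PC-9. Its signals there were 11.59 with erlotinib and 11.08 in control cells, a 1.42-fold difference. In HCC827 they were 10.10 with erlotinib and 8.21 in control cells, 3.71-fold higher with erlotinib. In H322 they were 11.29 with EGF and 10.90 in control cells, 1.31-fold higher with EGF. Among the controls HCC827 was lowest, 7.29-fold under PC-9 and 6.43-fold under H322, and PC-9 and H322 differed by 1.13-fold, less than the difference between the conditions within either line. The erlotinib signal of HCC827 stayed under all 4 signals of the other lines. ID4 was dim on all 6 arrays, from 5.97 to 6.95.

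**Figure D2:**
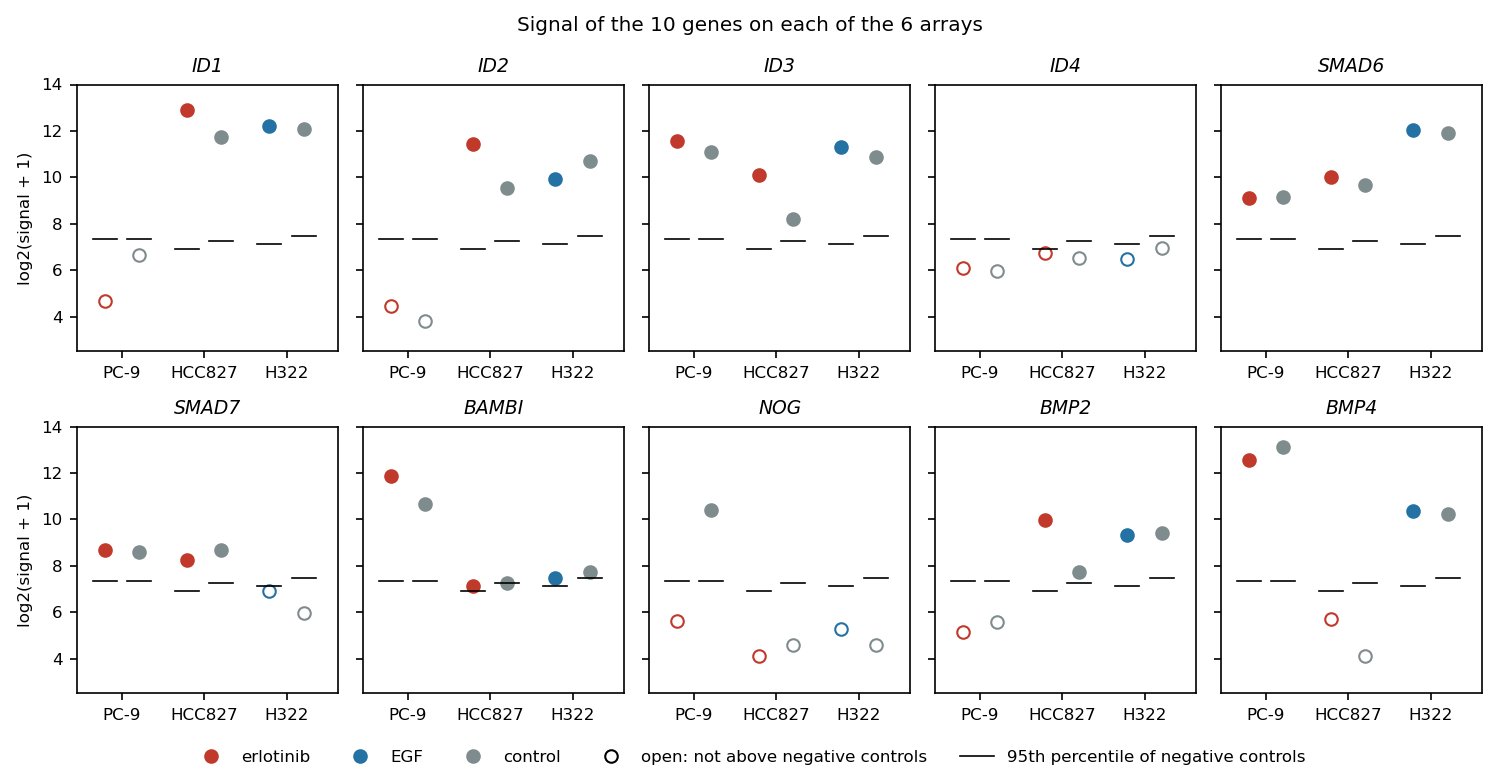
Log2(signal + 1) of each gene (vertical axis) on the 6 arrays, with the treated array left of its control in each line; erlotinib in red, EGF in blue, controls in grey, open circles dim, and black bars the 95th percentile of the negative controls of that array. ID1, ID2 and BMP2 are dim in PC-9 only, while BMP4 is dim in HCC827 only and NOG is above background on the PC-9 control array alone.

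The ligand gene BMP2 was above background in the same lines as ID1 and ID2. It was dim in PC-9, at 5.13 with erlotinib and 5.58 in control cells. In HCC827 its signals were 9.96 with erlotinib and 7.75 in control cells, 4.60-fold higher with erlotinib, the largest fold among the 10 genes in that line. In H322 they were 9.34 with EGF and 9.40 in control cells. BMP2 in untreated HCC827 lay just over background, and its erlotinib signal was above both signals of H322.

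BMP4 had the opposite placing. Its signals were 12.57 with erlotinib and 13.13 in control cells of PC-9, 1.48-fold lower with erlotinib. They were 5.71 with erlotinib and 4.13 in control cells of HCC827, both dim, so its difference of 1.59 has no fold. They were 10.36 with EGF and 10.25 in control cells of H322, 1.08-fold apart. The control signal of PC-9 was at least 58.0-fold higher than that of HCC827 and 7.39-fold higher than that of H322. The line with the highest BMP4 signal was the one in which ID1 and ID2 were dim, and ID3 was not.

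The extracellular antagonist gene NOG was above background on 1 array. Its signal was 5.60 with erlotinib in PC-9, against 10.39 in control cells. The erlotinib signal was dim, so NOG was at least 8.19-fold lower, and the uncorrected log2 difference of -4.79 is the largest of the 10 genes in any line. NOG was dim with 4.09 in erlotinib and 4.59 in control cells of HCC827, and with 5.29 in EGF and 4.58 in control cells of H322. The value rests on 1 bright array without a replicate.

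BAMBI, the pseudoreceptor gene, was higher in PC-9 than elsewhere. Its signals were 11.87 with erlotinib and 10.65 in control cells of PC-9, 2.33-fold higher with erlotinib. They were 7.13 with erlotinib and 7.27 in control cells of HCC827, and 7.46 with EGF and 7.71 in control cells of H322. All 4 of these values were close to background, and the HCC827 control was barely above it. The PC-9 control was 10.4-fold over the HCC827 control and 7.68-fold over the H322 control.

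The inhibitory SMAD genes differed little between treated and control cells. SMAD6 had 9.12 with erlotinib and 9.14 in control cells of PC-9, 10.02 with erlotinib and 9.67 in control cells of HCC827, and 12.05 with EGF and 11.91 in control cells of H322. Its largest fold was 1.28, in HCC827, while the H322 control was 6.83-fold over that of PC-9 and 4.74-fold over that of HCC827. SMAD7 had 8.69 with erlotinib and 8.60 in control cells of PC-9, and 8.23 with erlotinib and 8.70 in control cells of HCC827, where it was 1.38-fold lower with erlotinib. In H322 both SMAD7 signals were dim, at 6.93 with EGF and 5.95 in control cells. For SMAD6 the controls were ordered H322, HCC827, PC-9, with PC-9 and HCC827 1.44-fold apart; for SMAD7 PC-9 and HCC827 were 1.07-fold apart.

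Set side by side, the 10 genes differed by line in how many moved and which. In HCC827 4 of the 10 genes (ID1, ID2, ID3 and BMP2) were at least 2-fold higher with erlotinib and 0 at least 2-fold lower. In that line 5.02% of the 9378 genes above background on at least 1 array were at least 2-fold higher and 3.63% at least 2-fold lower. In PC-9 1 of the 10 was at least 2-fold higher (BAMBI) and 1 at least 2-fold lower (NOG), where the shares of 9041 genes were 1.79% and 3.44%. In H322 with EGF the count was 0 in both directions, with 0.209% and 0.154% of 9107 genes. On at least 1 array of the pair 7 of the 10 genes were above background in HCC827, 6 in PC-9 and 7 in H322, and only those could be counted. Since these differences were known when the genes were selected, nothing is read from the counts against the shares. The median log2 difference over the 10 genes was 0.74 in HCC827, 0.03 in PC-9 and 0.12 in H322, and over all named genes 0.00 in HCC827, 0.01 in PC-9 and 0.01 in H322. The log2 differences of the negative control probe sets had an SD of 1.06 in HCC827, 0.95 in PC-9 and 1.18 in H322, which shows how wide differences between dim signals are. Among genes above background on at least 1 array of the pair the SD was 0.60, 0.51 and 0.26 in these lines.

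**Figure D3:**
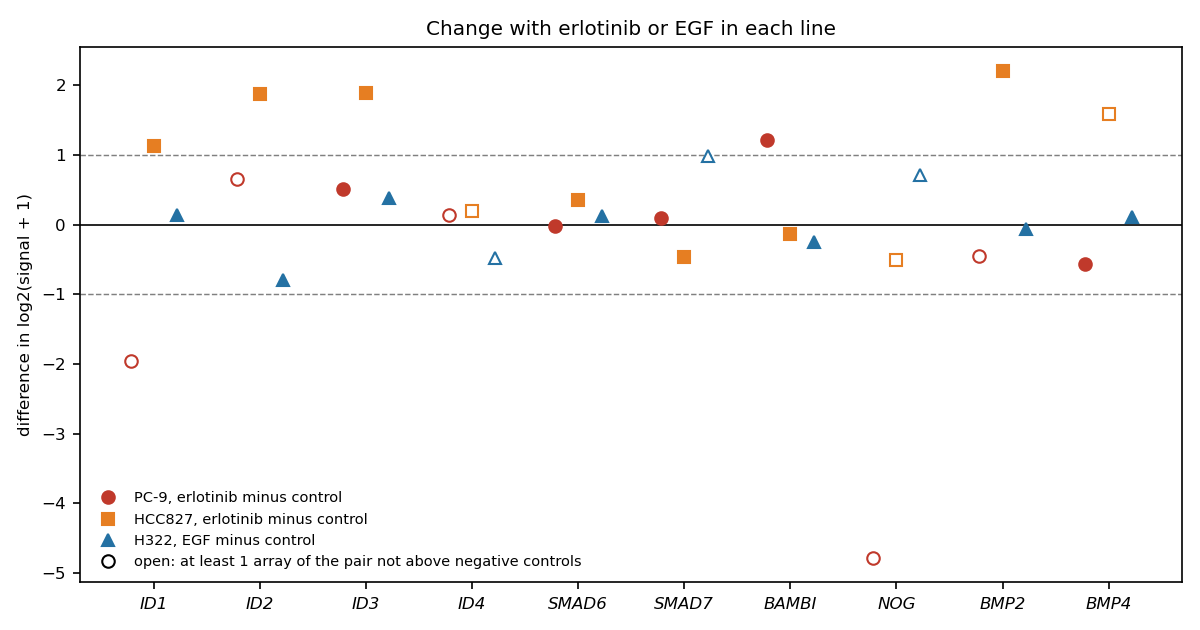
Difference in log2(signal + 1) between treated and control arrays (vertical axis) for each gene, with circles for PC-9, squares for HCC827 and triangles for H322; open symbols have at least 1 dim array, and dashed lines mark 2-fold. In HCC827 ID1, ID2, ID3 and BMP2 lie above 2-fold with both arrays above background, and no filled H322 symbol passes 2-fold.

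The control arrays alone were also compared. Between PC-9 and HCC827 controls 3 of the 10 genes (BAMBI, NOG and BMP4) stood at least 8-fold above HCC827 and 2 (ID1 and ID2) at least 8-fold below it by log2 difference, where 4.67% and 3.76% of 9608 genes were. The ID2 call rests on a dim signal in PC-9, and the bound that background allows is at least 4.62-fold lower. Between PC-9 and H322 controls 1 gene stood at least 8-fold above H322 (NOG, bounded at 7.56-fold) and 3 lower (ID1, ID2 and BMP2, the last with a bound of 4.15-fold), against 5.5% and 3.83% of 9550 genes. Between HCC827 and H322 controls 0 were higher in HCC827 and 1 was lower, BMP4 with a bound of 7.86-fold, against 4.38% and 4.15% of 9491 genes. These too are descriptions of single arrays.

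Other genes of the BMP and TGF-beta pathway, outside the 10, were tested with erlotinib against control in both EGFR-mutant lines. The test was limma with the cell line as a block and Benjamini-Hochberg adjustment over all 17687 genes. Of the 73 genes listed 68 were measured and 33 were above background on at least 1 of the 4 arrays. In limma 2 of the 68 fell, 0 rose and 66 did not pass, where 0.916% of all genes fell and 0.565% rose. At an unadjusted p under 0.05 limma had 6 lower and 8 higher among the 68, and 1208 lower and 1332 higher among all genes. The median log2 change was -0.01 over the 68 and 0.00 over all genes.

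The genes that fell were SMURF2 and TGFBR2. SMURF2, a ubiquitin ligase that marks SMADs and their receptors for degradation, had 12.22 with erlotinib and 13.51 in control cells of PC-9, and 11.65 with erlotinib and 12.99 in control cells of HCC827. Its change was -1.32 ± 0.14 in log2 signal (± moderated SE of limma, n = 2 lines, adjusted p = 0.0126). SMURF2 was lower by a similar amount in both lines, -1.29 in PC-9 and -1.34 in HCC827, and with EGF in H322 its difference was 0.54. TGFBR2, the type II receptor for TGF-beta, had 9.70 with erlotinib and 11.21 in control cells of PC-9, and 11.21 with erlotinib and 12.14 in control cells of HCC827. Its change was -1.22 ± 0.20 (limma, n = 2 lines, adjusted p = 0.0393), and in H322 the difference with EGF was 0.63. When the modelled spread did not depend on the level, neither gene passed in limma (adjusted p = 0.131 for SMURF2 and 0.159 for TGFBR2). Nor did they with the line left out of the model (limma adjusted p = 0.99999 for both). In that fit the difference between the lines counts as spread and all named pathway genes had this adjusted p. It therefore cannot decide on these 2 genes. TGFBR2 did not pass among genes above background either (limma adjusted p = 0.0618).

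No other pathway gene passed over all genes in this fit, and those named here were taken by a fixed rule. BMP3, BMPR2, ENG and RUNX2 passed with quantile normalization of the arrays, as did TGIF1, a corepressor gene that the rule does not name. Of 12 ligand genes 1 was above background in the EGFR-mutant lines. This was BMP3, a ligand that can act against other BMPs, at 10.30 with erlotinib and 7.99 in control cells of HCC827, and dim at 5.57 with erlotinib and 4.86 in control cells of PC-9. Its mean change was 1.50 ± 0.39 (limma adjusted p = 0.127, n = 2 lines). BMP3 in HCC827 was thus higher with erlotinib by about the difference of BMP2 there, 2.30 against 2.20, on the log2 scale.

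Of the 10 measured receptors and co-receptors 0 passed in limma, with 1 higher and 1 lower at an unadjusted p under 0.05. BMPR2, the type II BMP receptor, had 0.70 ± 0.22, with 0.30 in PC-9 and 1.10 in HCC827. The co-receptor gene ENG had -0.65 ± 0.17, with -0.40 in PC-9 and -0.90 in HCC827. Of the 6 signalling SMAD genes 0 passed and 2 were higher at an unadjusted p under 0.05. SMAD1, which carries the BMP signal, and SMAD4, the partner shared by both branches, had 0.47 ± 0.19 and 0.54 ± 0.15. The limma adjusted p ranged from 0.125 to 0.311 over these 4 genes.

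Of 12 measured secreted antagonists 0 passed in limma, with 0 higher and 1 lower at an unadjusted p under 0.05. CHRDL1, a chordin-like BMP antagonist, was above background in PC-9 only, at 8.12 with erlotinib and 8.72 in control cells. FSTL3, which binds activin, was likewise above background in PC-9 only, at 9.41 with erlotinib and 8.85 in control cells. Among 9 other BMP targets 0 passed, with 1 higher and 1 lower at an unadjusted p under 0.05. The osteoblast transcription factor gene RUNX2 had -0.73 ± 0.18 and STAT3 had 0.39 ± 0.14 (limma adjusted p = 0.117 and 0.254). Of 5 measured TGF-beta ligands and receptors 1 passed, TGFBR2, and TGFB1 had -0.25 ± 0.20. PMEPA1, an inhibitor of TGF-beta signalling in the list of ligases and corepressors, had -0.10 in PC-9 and -1.16 in HCC827. In that list SMURF2 was the 1 of 11 that passed in limma. At an unadjusted p under 0.05 it had 3 higher and 2 lower, SMURF2 among the lower. Of 3 E protein genes, the partners of ID proteins, 0 passed in limma and 0 had an unadjusted p under 0.05. TCF3 had 0.00 ± 0.20 and TCF12 had 0.15 ± 0.19.

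**Figure D4:**
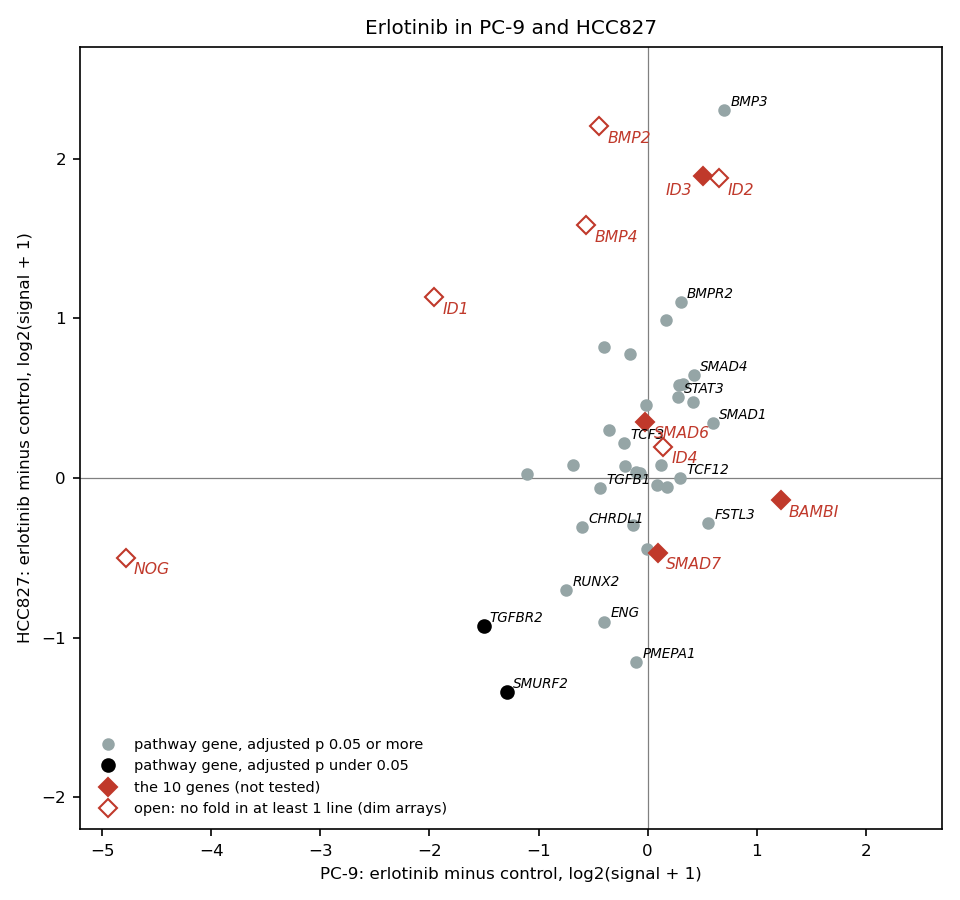
Log2 difference between erlotinib and control in PC-9 (horizontal axis) and HCC827 (vertical axis) for the 10 genes (diamonds, open where both arrays of a line were dim) and for the 33 pathway genes above background on at least 1 of the 4 arrays (circles, black where limma's adjusted p was under 0.05). SMURF2 and TGFBR2 lie low on both axes, while ID2, ID3, BMP2 and BMP3 lie high on the HCC827 axis.

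Genes with the most similar 6-array profile were found for the 8 of the 10 genes with enough signal. The measure was the root mean square difference in log2 signal over the 6 arrays after each gene's own mean was subtracted, among 9053 other genes above background on at least 3 arrays. The 6 points are 3 lines with 2 arrays each, so they share lines, and the likeness is a description. The measure takes in differences between lines as well as between conditions, so a near gene need not differ alike with erlotinib. ID1 was nearest to STOM, SLC44A5 and CXCL17 (0.55 to 0.68). These differed with erlotinib in HCC827 by 0.19, 0.64 and 0.28, beside 1.13 for ID1. ID2 was nearest to SCIN, which encodes an actin-severing protein, at 0.33, and then to the chemokine gene CXCL10 and to SAMD9. SCIN differed with erlotinib by 0.52 in PC-9 and 1.68 in HCC827 and with EGF by -0.33 in H322, beside 0.66, 1.88 and -0.79 for ID2. Both PC-9 signals of ID2 were dim, so its 0.66 has no fold. CXCL10 differed with erlotinib by 2.33 in PC-9 and 1.71 in HCC827, and SAMD9 by 0.53 in both lines. ID3 was nearest to SLC35E2B, PDK2 and BIVM-ERCC5 (0.24 to 0.29). SLC35E2B has a close copy and BIVM-ERCC5 is a readthrough that overlaps its parent genes, so their signals are uncertain. PDK2, a pyruvate dehydrogenase kinase, differed by 0.49 in PC-9, 1.51 in HCC827 and -0.05 in H322, beside 0.51, 1.89 and 0.39 for ID3.

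BMP2 was nearest to PLEKHS1, at 0.18, which differed with erlotinib by -0.67 in PC-9 and 1.84 in HCC827, beside -0.45 and 2.20 for BMP2. Both PC-9 signals of BMP2 were dim, so its -0.45 has no fold. CRISPLD1 and VTCN1, which encodes the checkpoint ligand B7-H4, followed at 0.41 and 0.43. SMAD6 had the nearest neighbour of the 8, ARHGAP32 at 0.11, followed by CEP250 and GGH. SMAD7 was nearest to MED31, ZFYVE27 and SVIL (0.20 to 0.25). BAMBI was nearest to CCDC80, MFGE8 and C1QTNF6 (0.37 to 0.41), which differed with erlotinib in PC-9 by 0.50, 0.03 and 0.06, beside 1.22 for BAMBI. BMP4 had the most distant neighbours, SLCO4C1, P3H2 and WNT5A, at 0.63 to 0.85. The measure is not scaled by the range of a gene over the arrays, which was 9.01 for BMP4 and 2.93 for SMAD6. ID1, ID2 and BMP2 were not among each other's 3 nearest genes.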

How the data were processed

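Trizol-extracted RNA was labelled with biotin and hybridised, per the labels' protocols, to 6 Clarion S arrays. The authors deposited linear probe set intensities, for which the submitters' processing notes name Affymetrix Expression Console; version, background correction, summarisation, scaling and genome build were not given in the sources used. From the intensities log2(value + 1) was computed, which understates changes of dim genes. The platform annotation gave 17709 of 24351 probe sets 1 symbol, 0 several and 6642 none, and the brightest probe set was kept for each of 17687 symbols. A RefSeq table held all 17709 by gene identifier, with 0 symbols changed.

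The members, pathway lists and tests were chosen with earlier results of these data known. Erlotinib was tested on 4 arrays with limma 3.58.1 in R 4.3.3 (lmFit, eBayes with trend, cell line as a block, which is where the pairing comes from, two-sided, Benjamini-Hochberg at 0.05). There is 1 residual degree of freedom, and 6.58 more come from other genes, so agreement between the lines has a small part in the p-values. Separate cultures are not stated, so the spread may be technical. On simulated data (17687 genes, 200 changed, 5 runs) 32.2% of 2-fold and 96.6% of 4-fold changes were called. Of the calls 9.55% were false, above the 0.05 aimed at. The simulated noise was drawn from the fitted model and each change was the same in both lines, so these rates may not hold for the measured data. Genes named are the 10 members, pathway genes past the threshold or, where a list had fewer than 2, its 2 largest mean changes above background, the 3 genes nearest each member in profile, and DUSP6. BMP5, BMP7, DLX5 and TCF4 in the closing section were named after their values were seen, and TGIF1 because it passed in alternative fits. Motifs were searched in RefSeq windows with Python 3.11.15. Alternatives were an offset of 16, centring, quantile normalization, raising or filtering dim signals, averaging probe sets, the 99th percentile as background, and limma without trend or block.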

Additional observations from a re-analysis of the deposited data

Results flagged for a closer look

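Among the 10 genes and the pathway genes named for the erlotinib test, 4 had measured signals in both EGFR-mutant lines and differences of opposite sign with erlotinib. Pathway genes not named there were not considered. Each line has 1 pair of arrays, so the difference between lines was not tested. BAMBI differed by 1.22 on the log2 scale in PC-9 and by -0.14 in HCC827, where its signals were near background. SMAD7 differed by 0.092 in PC-9 and -0.47 in HCC827. SMAD6 differed by -0.022 in PC-9 and 0.35 in HCC827. The E protein gene TCF3 differed by -0.22 in PC-9 and 0.22 in HCC827. Of these 8 differences BAMBI in PC-9 alone passed 2-fold.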

How the results depend on the processing

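The counts of the 10 genes at 2-fold in HCC827, PC-9 and H322 were 4, 2 and 0 in the deposited values. They were the same under all 5 alternatives run on them (offset 16, median centring, quantile normalization, dim signals raised to background, mean of probe sets). The mean of probe sets could not change these counts or the differences below, since each gene had 1 probe set. Of 150 recomputed log2 differences of these genes 4 moved by more than the SD of the negative controls. All 4 came with dim signals raised to background, which also shifted the median of all genes by -0.35 in HCC827 and -0.34 in H322. No difference counted at 2-fold, which needs a signal above background, changed sign. Differences between dim signals did so when these were raised. ID1 in PC-9 went from -1.96 to 0.01, BMP4 in HCC827 from 1.59 to -0.35 and SMAD7 in H322 from 0.98 to -0.34. NOG in PC-9, which is counted at 2-fold, moved from -4.79 to -3.03 and kept its sign. With 60 gene and array combinations, 39 were above the 95th percentile of the negative controls and 20 above the 99th. The 2-fold counts and the folds were not rerun with the 99th percentile as background, so they hold for the 95th percentile only. In control cells of HCC827 the signals of BMP2 and ID3 were 7.75 and 8.21, against a 95th percentile of 7.27 on that array. The limma count of 2 pathway genes was 2 with an offset of 16, 3 with median centring, 7 with quantile normalization, 9 with dim signals raised, 1 among genes above background, 0 without a trend and 0 with no replicate block, where the cell line is left out of the model; the causes were not tested. BMP3 passed as higher with median centring, quantile normalization and dim signals raised (limma adjusted p = 0.0499, 0.0127 and 0.00089). With the last 2 of these BMPR2 passed as higher and ENG and RUNX2 as lower (limma adjusted p from 0.00268 to 0.0414), and TGIF1 also passed. With dim signals raised SMAD4 passed as higher and PMEPA1 as lower (limma adjusted p = 0.0382 and 0.00649). Both PC-9 signals of BMP3 were dim, so its calls rest largely on the HCC827 pair. Raising dim signals gives all dim genes of an array the same value, which alters the spread that limma models. The limma adjusted p of SMURF2 was 8.9e-13 there, against 0.0126 in the main fit. Its p-values are thus not comparable with those of the main fit. Leaving out a line leaves no residual degree of freedom, so no test was run; the pathway median was then 0.01 in HCC827 alone and -0.04 in PC-9 alone, against -0.01 in both. Both 1 array per condition and signals near background limit these results.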

Other observations

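Several pathway genes were above background in H322 and dim in both EGFR-mutant lines, on single arrays. BMP7, a BMP ligand, had log2 signals of 11.16 with EGF and 11.13 in control cells of H322, and BMP5 had 9.15 with EGF and 9.43 in control cells. DLX5, a homeobox gene known as a BMP target, had 10.55 with EGF and 11.17 in control cells. TCF4, an E protein gene, had 10.59 with EGF and 10.88 in control cells. These 4 genes were chosen after their values were seen.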
